A study of Mus musculus with 18 samples.

Results

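Glycolysis splits glucose to pyruvate in the cytosol, and the genes described here encode 33 of its transporters and enzymes and of the genes known to rise in low oxygen. They were chosen by name and looked up by Entrez identifier among the 27179 genes of the series' count table. All 33 were found, and all 33 were among the 16466 genes that passed the filter on low counts. By role they were 3 transporters of glucose and lactate, 9 enzymes of upper glycolysis (glucose to triose phosphates), 6 of lower glycolysis (triose phosphates to pyruvate), 4 genes that set the fate of pyruvate, 3 genes of the oxygen sensor and 8 other hypoxia-responsive genes.

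Glucose enters through facilitative transporters, is trapped by hexokinase and is committed at phosphofructokinase; lactate dehydrogenase then interconverts pyruvate and lactate, and pyruvate dehydrogenase kinases hold pyruvate back from the mitochondria. In oxygen, prolyl hydroxylases mark the alpha subunit of hypoxia-inducible factor (HIF) for destruction. In low oxygen the subunit is stable, pairs with ARNT and binds a short DNA element whose core reads ACGTG or GCGTG, and many glycolytic genes carry that element. HIF1A is controlled chiefly as a protein, which RNA counts do not measure.

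RNA came from sorted mammary epithelium of 14-week-old female mice, 3 per genotype, and every mouse gave 1 library of each of 3 populations. Basal cells form the contractile outer layer of the duct, luminal progenitors (LP) are the inner cells that feed the alveolar lineage, and mature luminal (ML) cells are the hormone-sensing inner cells. KO mice carried MMTV-cre, a transgene whose promoter is active in mammary epithelium, with Brca2 deleted on both alleles and Trp53 on 1; the other mice are labelled wildtype (WT). The sample titles call the same genotype a knockdown. The strain entry, MMTVcre Brca2(fl/fl) Trp53(fl/+), is the same for WT and KO libraries, so it does not tell whether WT mice carried the transgene, and deletion in each cell was not measured. This gave 18 libraries in 6 groups of 3, with 5973389 to 39194603 counts each.

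Levels are CPM (each library's counts scaled to the same total, after edgeR's TMM scaling), listed by mouse in the order 1, 2, 3 or as mean ± SD (n = 3). Mouse numbers name the same animal across the populations of a genotype, and different animals in KO and WT. Changes are log2 fold changes ± SE, and a gene is said to have risen or fallen where edgeR's quasi-likelihood test gave a Benjamini-Hochberg adjusted p below 0.05 over all 16466 genes. Trp53 fell in KO in all 3 populations, on the log2 scale by 1.72 (basal), 3.60 (LP) and 1.58 (ML). As point estimates these falls were larger than 1, the fall that losing 1 of 2 copies gives, and the labels put 1 Trp53 allele as deleted. Whether the falls differ from 1 was not tested, and the basal call was lost in 1 of 16 alternatives. Brca2 was not called, and a count over the whole gene does not test the loss of single exons. LP libraries differed in depth without overlap (22416572 to 32724291 counts in KO, 9285139 to 16167003 in WT), so depth moved with genotype there, and values with all libraries thinned to 1 depth are given after the LP results. The populations held their own marker genes, but ML KO libraries also carried RNA of basal and LP markers, given beside the ML results. In basal KO the sum of 9 LP markers was 150 to 276 CPM, against 64.5 to 86.8 in basal WT and 4337 to 7385 in LP WT. Of these 9, 4 were called higher in basal KO, beside 2.47% of all tested genes. The part of that shift in the basal results was not tested.

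Upstream DNA is shown for 6 genes, picked after their values were seen: Egln3 and Ldhb rose in ML KO, Pgam1 rose and Hif1a fell in LP KO, Eno1 rose in both, and Ldha, a textbook HIF target, was called in neither and stands for contrast. Each is the stretch of 250 bases before a RefSeq start on GRCm38.p6, 5′ to 3′ on the gene's strand. For Ldha and Hif1a the start used lies inside the full annotated span of the gene. Capitals mark ACGTG or GCGTG read on either strand (CACGT and CACGC on the strand printed).
Egln3 (chr12:54203875-54204124, minus strand): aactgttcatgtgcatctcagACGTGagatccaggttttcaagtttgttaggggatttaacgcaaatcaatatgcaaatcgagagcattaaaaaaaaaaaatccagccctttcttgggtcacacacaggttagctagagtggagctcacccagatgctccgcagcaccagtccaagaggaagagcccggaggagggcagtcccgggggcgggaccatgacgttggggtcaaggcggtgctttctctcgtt
Ldhb (chr6:142507958-142508207, minus strand): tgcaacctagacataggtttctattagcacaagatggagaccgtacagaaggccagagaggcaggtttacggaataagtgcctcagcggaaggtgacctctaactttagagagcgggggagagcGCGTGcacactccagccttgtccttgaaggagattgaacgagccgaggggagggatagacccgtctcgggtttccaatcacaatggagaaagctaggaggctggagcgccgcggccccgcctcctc
Eno1 (chr4:150236458-150236707, plus strand): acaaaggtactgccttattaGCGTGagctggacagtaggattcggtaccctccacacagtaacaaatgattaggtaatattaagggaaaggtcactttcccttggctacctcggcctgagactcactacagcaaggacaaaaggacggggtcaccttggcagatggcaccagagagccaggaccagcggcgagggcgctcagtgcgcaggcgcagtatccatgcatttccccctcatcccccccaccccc
Pgam1 (chr19:41911621-41911870, plus strand): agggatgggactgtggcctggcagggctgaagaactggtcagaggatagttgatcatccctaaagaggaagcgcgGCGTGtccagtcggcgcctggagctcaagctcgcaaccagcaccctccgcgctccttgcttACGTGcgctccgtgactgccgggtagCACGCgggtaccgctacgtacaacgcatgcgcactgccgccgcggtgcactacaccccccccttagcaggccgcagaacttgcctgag
Ldha (chr7:46845554-46845803, plus strand): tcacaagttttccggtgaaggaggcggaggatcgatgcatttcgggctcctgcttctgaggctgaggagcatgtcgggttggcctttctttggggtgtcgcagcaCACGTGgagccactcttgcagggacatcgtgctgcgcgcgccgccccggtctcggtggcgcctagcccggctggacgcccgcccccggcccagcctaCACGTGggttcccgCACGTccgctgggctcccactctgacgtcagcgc
Hif1a (chr12:73907617-73907866, plus strand): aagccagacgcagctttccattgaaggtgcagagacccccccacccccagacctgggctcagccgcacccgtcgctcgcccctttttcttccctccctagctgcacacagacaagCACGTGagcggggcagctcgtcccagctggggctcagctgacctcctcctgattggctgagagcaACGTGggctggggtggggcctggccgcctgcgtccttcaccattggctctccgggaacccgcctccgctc
The Egln3, Ldhb and Eno1 windows each held 1 marked place, Hif1a held 2, and Pgam1 and Ldha held 3. CACGTG, an E-box that other factors also bind, reads as the core on both strands, and it made up 2 of the 3 places of Ldha and 1 of the 2 of Hif1a. RefSeq windows were matched for 32 of the 33 members. Of these 32, 25 (78.1%) held either core, against 54.2% of the 12237 tested genes with a window, and 17 (53.1%) held ACGTG, against 20.7%. The members' windows had a median GC content of 62.8% and those of tested genes 59.2%. Such a match describes letters in a window and is not a measured binding site.

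In WT mice the members summed to 6904 ± 2300 CPM in the basal population, against 3945 ± 1016 for LP and 3835 ± 499 for ML. Levels of different genes are compared per kilobase of the authors' gene length. Ldha, the lactate dehydrogenase subunit that favours lactate, led in basal cells at 448 ± 106 CPM per kb, followed by Ndrg1 at 416 ± 392 and Pkm (pyruvate kinase) at 291 ± 79.0. The mean ± SD ranges of these 3 overlapped, but within each basal WT library Ldha was above Pkm per kb. LP had the same 3 at the top, with Ndrg1 at 272 ± 164, Ldha at 199 ± 64.5 and Pkm at 142 ± 35.2 CPM per kb. These ranges overlapped too, and Ldha was again above Pkm per kb in every library. ML was led by Pkm at 288 ± 13.0 CPM per kb, well above Aldoa (aldolase A) at 197 ± 12.3, Ldha at 142 ± 6.03 and Hif1a at 127 ± 47.5. The genes at the bottom were Ankrd37 (an ankyrin-repeat HIF target) in basal cells at 2.11 ± 0.852 CPM per kb, Slc16a3 (a lactate exporter) in LP at 0.512 ± 0.593 and Car9 in ML at 0.0499 ± 0.0683.

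**Figure D1:**
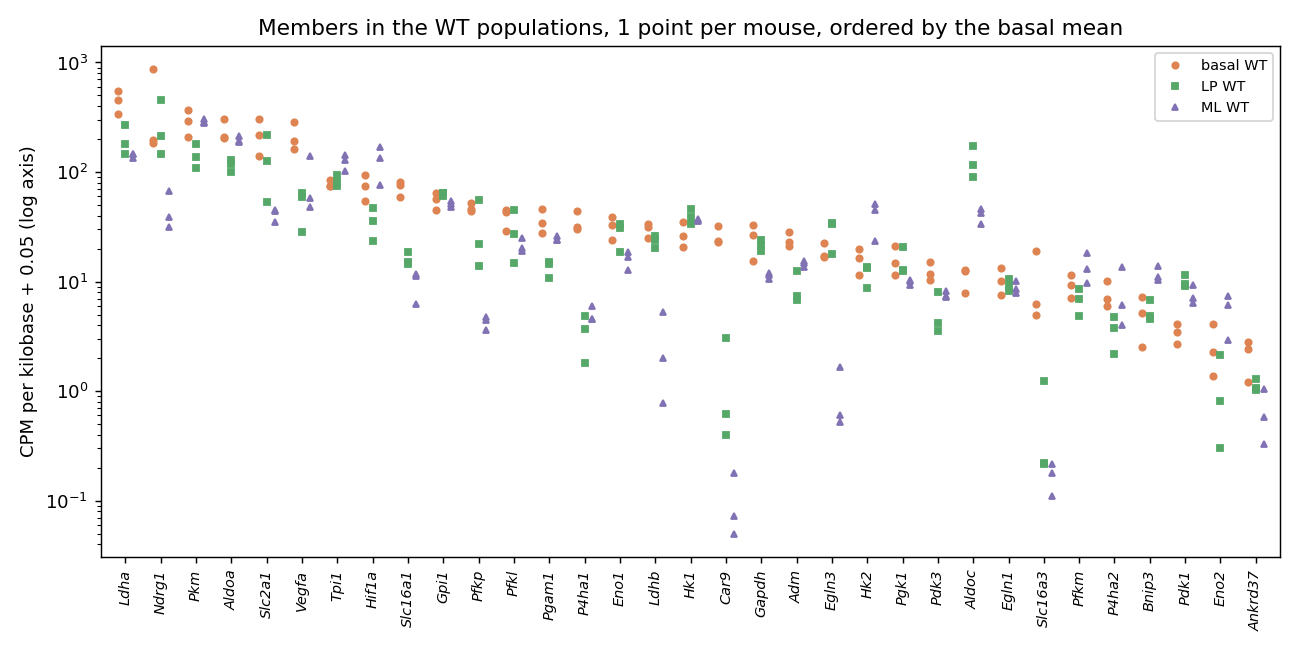
Level of each of the 33 genes in the 3 WT populations, in CPM per kilobase of gene length plus 0.05 on a log axis, 1 point per mouse, genes ordered by their basal mean. Car9, Slc16a3, P4ha1, Slc16a1, Egln3, Ldhb and Pfkp have ML points far below the basal points, and Aldoc has LP points above both.

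Against WT basal cells, 12 members were lower and 2 higher in LP (edgeR; 36.1% of all tested genes were called, 19.2% lower and 16.9% higher), and 18 were lower and 5 higher in ML (53.3% called, 28.5% lower and 24.8% higher). The members' median log2 difference was -0.65 for LP and -0.71 for ML against basal cells, beside 0.00 and -0.07 over all tested genes. In ML the split was 14 lower and 8 higher with upper quartile scaling, which moved the median of all genes from -0.07 to 0.07, and 19 lower and 9 higher with the mouse as a block. LP against ML gave 8 higher and 10 lower (33.9% called, 18.3% higher and 15.6% lower), with medians of 0.31 and 0.01, and 11 higher and 9 lower with that block. Each WT group enters 2 of these comparisons, so they are not independent of each other. Without WT mouse 2, LP against ML called 11 members and ML against basal cells 15. Over all tested genes, leaving out 1 mouse gave 3691 to 4101 calls for LP against ML (5585 with all mice). For ML against basal cells it gave 6787 to 7368 (8770). Over every alternative run, the block among them, the highest counts were 6490 for LP against ML and 9410 for ML against basal cells.

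All 3 transporters were lower in ML than in basal cells. Slc16a1 (MCT1, a monocarboxylate transporter that carries lactate) read 356, 338 and 259 CPM in the basal libraries, with 63.9, 65.9 and 83.1 for LP and 49.9, 51.7 and 27.2 for ML. Basal libraries lay above all luminal ones, and it was 4.47-fold lower in LP (adjusted p = 3.82e-05, edgeR) and 7.42-fold lower in ML (1.14e-06). Slc16a3 (MCT4, which exports lactate) read 48.5, 12.6 and 16.1 CPM in the basal libraries, with 3.08, 0.44 and 0.43 for LP and 0.16, 0.33 and 0.43 for ML. Mouse 1 was far above the other mice in both basal cells and LP. The gene was 20.8-fold lower in LP and 73.8-fold lower in ML, or -4.38 and -6.21 on the log2 scale. Without mouse 1 these differences were -5.05 and -5.18, and without mouse 3 that of ML was -6.81. ML WT had 1, 4 and 10 counts of it. Slc2a1 (GLUT1, a widespread glucose importer) was 5.32-fold lower in ML than in basal cells and 3.21-fold higher in LP than in ML. Its difference between LP and basal cells was -0.73 ± 0.39 (adjusted p = 0.159), and became a call with the mouse as a block (-0.84 ± 0.25, adjusted p = 0.0152, edgeR).

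In upper glycolysis the isozymes of the phosphofructokinase and aldolase steps differed in opposite directions between LP and ML. Hk2, the inducible hexokinase, was at 282, 247 and 129 CPM in ML, at 73.9, 72.7 and 47.7 in LP and at 109, 90.6 and 63.6 in basal cells. ML libraries were all above the others, 3.39-fold above LP (adjusted p = 0.000449, edgeR). Hk1, the constitutive hexokinase, differed little, with 178 ± 27.9 CPM for LP, 163 ± 3.45 for ML and 123 ± 31.8 for the basal population; with the mouse as a block both luminal populations were called above basal cells (0.55 ± 0.18, adjusted p = 0.0232, and 0.45 ± 0.18, adjusted p = 0.0461, edgeR).

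Pfkp, the platelet-type phosphofructokinase, read 209, 176 and 185 CPM in the basal libraries, with 221, 88.1 and 54.7 for LP and 14.1, 18.9 and 17.5 for ML. The ML libraries sat below every other WT library, 11.3-fold below basal cells (adjusted p = 1.03e-06, edgeR) and 7.19-fold below LP (2.57e-05). LP mouse 1 stood far above the other LP mice, and without mouse 1 the fold between LP and ML was 3.93 (adjusted p = 0.000443). Pfkm, the muscle type, ran the other way and was 2.02-fold lower in LP than in ML. Pfkl, the liver type, was 1.82-fold lower in ML than in basal cells.

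Aldoc, the brain-type aldolase, was at 198, 295 and 154 CPM in LP, 21.8, 21.2 and 13.2 in basal cells and 78.9, 71.2 and 56.6 in ML. The 3 populations did not overlap, and LP exceeded basal cells 11.5-fold (adjusted p = 2.5e-06, edgeR). Aldoa, the widespread aldolase, was 2.07-fold lower in LP than in basal cells. Tpi1 (triose phosphate isomerase) was 1.60-fold higher in ML than in basal cells, and Gpi1 (glucose phosphate isomerase) was called in none of the 3 comparisons.

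Of the 6 enzymes of lower glycolysis, 4 were lower in ML than in basal cells and 2 in LP, beside 28.5% and 19.2% of all tested genes. Pgam1, phosphoglycerate mutase, read 84.1, 63.2 and 50.7 CPM in the basal libraries, with 27.6, 19.7 and 26.5 for LP and 44.2, 47.3 and 43.6 for ML. LP libraries lay below all others, 2.68-fold below basal cells (adjusted p = 3.57e-05, edgeR). Pkm was likewise 2.05-fold lower in LP than in basal cells and 2.03-fold lower than in ML. Gapdh, Pgk1 (phosphoglycerate kinase) and Eno1 (enolase 1) were 2.20-fold, 1.61-fold and 1.97-fold lower in ML than in basal cells. Eno2, the neuronal enolase, was 5.27-fold lower in LP than in ML, and 8.42-fold without mouse 1. With the mouse as a block, Pgk1 and Eno1 were also called higher in LP than in ML (adjusted p = 0.0414 and 0.0498) and Eno2 higher in ML (adjusted p = 0.0319) and lower in LP (adjusted p = 0.0125, edgeR) than in basal cells.

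At the fate of pyruvate, Ldhb, the subunit that favours lactate oxidation, separated ML from the rest. It read 0.95, 2.5 and 6.8 CPM in ML, with 26.3, 30.8 and 33.3 for LP and 32.2, 43.6 and 40.8 for the basal libraries. ML was far below both, 8.15-fold below LP (adjusted p = 0.00011, edgeR) and 10.5-fold below basal cells, and 15.7-fold and 20.7-fold without mouse 3. Ldha was lower in both luminal populations, 2.26-fold in LP and 3.16-fold in ML. The pyruvate dehydrogenase kinases diverged: Pdk1 was 2.94-fold higher in LP and 2.24-fold higher in ML than in basal cells, and Pdk3 was 2.39-fold and 1.63-fold lower.

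Of the oxygen sensor, Egln3 (PHD3, a prolyl hydroxylase that is itself HIF-induced) was nearly missing from ML, with 1.27, 4.34 and 1.5 CPM. LP held 48.1, 89.5 and 91.4 CPM and basal cells 46.1, 60.0 and 44.5. LP exceeded ML 31.8-fold (adjusted p = 5.41e-06, edgeR) and ML lay 20.9-fold below basal cells, with folds of 49.3 and 32.0 without mouse 2. Hif1a went the opposite way, 3.59-fold lower in LP than in ML and 2.10-fold lower in LP than in basal cells. Egln1 (PHD2, the main prolyl hydroxylase in oxygen) was called in none of the 3 comparisons, with 36.3 ± 10.2 CPM in the basal population, 32.8 ± 4.06 for LP and 30.8 ± 4.13 for ML.

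Among the other hypoxia-responsive genes, Car9 (carbonic anhydrase IX, a cell-surface enzyme used as a hypoxia marker) read 45.3, 63.5 and 45.5 CPM in the basal libraries, with 5.92, 1.11 and 0.67 for LP and 0, 0.25 and 0.043 for ML. Basal cells held nearly all of it. ML WT had 4 counts in its 3 libraries together, and basal WT exceeded it 430-fold (95% counting interval 168 to 1580, exact); LP was 21.1-fold below basal cells (adjusted p = 1.66e-05, edgeR) and 64.3-fold without mouse 1. P4ha1, a collagen prolyl hydroxylase subunit, read 123, 179 and 128 CPM in the basal libraries, with 14.7, 19.3 and 7.05 for LP and 18.4, 18.1 and 23.8 for ML, with basal libraries far above the others and folds of 10.6 and 7.11. Vegfa (the angiogenic growth factor) was 4.21-fold lower in LP and 2.61-fold lower in ML than in basal cells.

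Ndrg1, a stress-responsive gene, read 2512, 563 and 536 CPM in the basal libraries and 195, 90.2 and 111 for ML. It was 9.11-fold lower in ML than in basal cells, and 5.45-fold without mouse 1, which was the highest in both. Bnip3, a mitophagy receptor, was the 1 gene of these 8 that was higher in ML than in basal cells (2.38-fold). P4ha2 was 2.25-fold lower in LP than in ML, or -1.17 ± 0.44 on the log2 scale. With the mouse as a block the difference was -1.15 ± 0.46 and was not called (adjusted p = 0.058, edgeR), and without mouse 2 it was -0.27 ± 0.44 (adjusted p = 0.711). Adm (adrenomedullin) was 2.70-fold lower in LP than in basal cells and, with the mouse as a block only, called lower in ML (-0.72 ± 0.28, adjusted p = 0.0382). Hif1a and Pfkm were each called higher in ML than in basal cells with that block only (adjusted p = 0.0379 and 0.0167), and Slc16a1 higher in LP than in ML (adjusted p = 0.0187).

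KO was then compared with WT within each population, which asks how the glycolytic and hypoxia genes differ in libraries labelled as having lost Brca2 and 1 Trp53 allele. In LP, 5 members rose (Tpi1, Pgam1, Eno1, Pkm and Pdk3) and 1 fell (Hif1a), that is 18.2% of 33. RLE scaling gave 5 and 2. edgeR called 13.3% of all tested genes, 7.55% higher and 5.73% lower. In ML, 6 rose (Pfkp, Eno1, Ldhb, Egln3, Car9 and Ndrg1) and 1 fell (Bnip3), that is 21.2% beside 15.1% of all tested genes, 12.5% higher and 2.62% lower. In basal cells none of the 33 was called by edgeR, DESeq2 or limma voom, beside 2.54% of all tested genes, 2.47% higher and 0.0729% lower. The members' median log2 change was 0.12 for LP, 0.11 for ML and -0.01 for the basal population, beside 0.02, 0.02 and -0.02 over all tested genes. Counted by libraries that do not overlap, 7 members were higher and 3 lower in LP KO (31% of all tested genes do not overlap, 17.7% higher and 13.4% lower), 11 were higher and 3 lower in ML KO (37.8%, 21.6% and 16.2%), and 2 were higher and 2 lower in basal KO (17.6%, 10.8% and 6.82%).

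**Figure D2:**
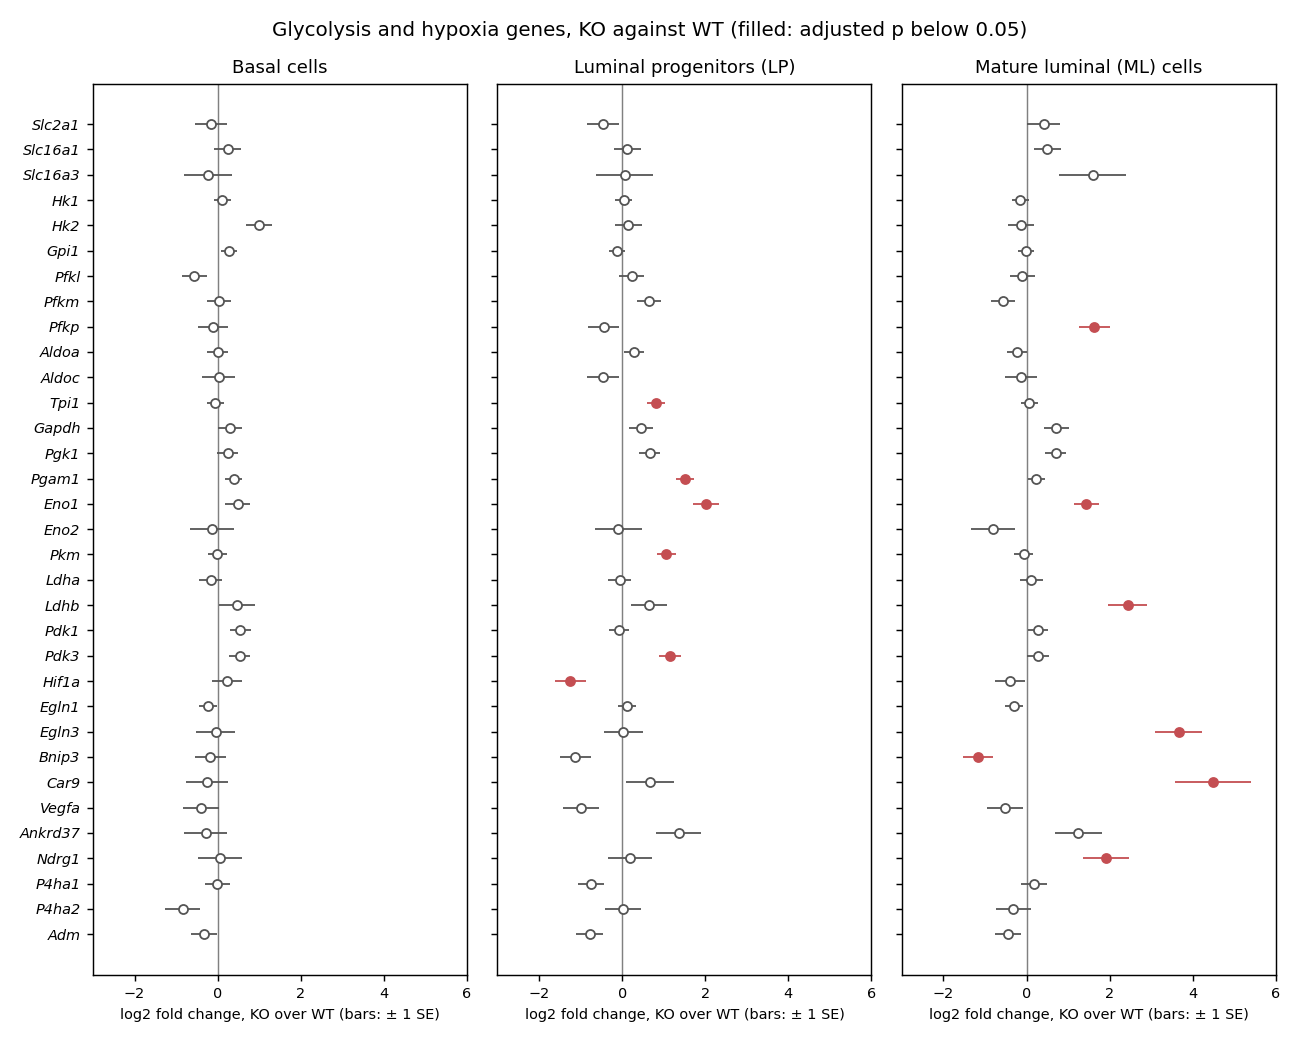
log2 fold change of KO over WT for the 33 genes in basal cells, LP and ML; bars are 1 SE on each side, and filled points passed an adjusted p of 0.05 (edgeR, n = 3 per group). Filled points are absent from basal cells, run from Tpi1 to Hif1a in LP (5 higher, 1 lower) and differ in ML, where Eno1 is the 1 gene filled in both.

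Of the LP genes that rose, Pgam1, Eno1 and Pkm encode the last 3 steps to pyruvate. Pgam1 (chr19:41911871-41918665), which moves the phosphate of phosphoglycerate, was at 63.9, 66.6 and 78.9 CPM in KO and 27.6, 19.7 and 26.5 in WT. KO libraries were all above WT, and the change was 1.50 ± 0.22 (2.83-fold, adjusted p = 0.000333, edgeR). Eno1 (chr4:150236708-150248879), which makes phosphoenolpyruvate, was at 170, 167 and 259 CPM in KO and 33.2, 54.5 and 59.3 in WT. The 3 LP KO values exceeded every library of the other groups, where the highest was 115 CPM in basal KO mouse 2, and the change was 2.02 ± 0.31 (4.05-fold, adjusted p = 0.000583). Pkm (chr9:59656576-59679372), which makes pyruvate, was at 816, 698 and 800 CPM in KO and 465, 283 and 359 in WT. The groups did not overlap, the change was 1.06 ± 0.24 (2.09-fold, adjusted p = 0.00723), and the LP KO mean of 771 CPM stood beside 756 in basal WT and 749 in ML WT.

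Tpi1 (chr6:124810586-124814158) was at 208, 207 and 285 CPM in LP KO and 129, 119 and 150 in LP WT. All KO libraries were higher, by 0.82 ± 0.21 (1.76-fold, adjusted p = 0.0163, edgeR). Pdk3 (chrX:93764616-93832150), a kinase that inactivates pyruvate dehydrogenase, was at 22.6, 22.2 and 24.3 CPM in KO and 16, 8.34 and 7.05 in WT. Here too the groups did not overlap, with a change of 1.15 ± 0.27 (adjusted p = 0.00995). Hif1a (chr12:73901324-73947554) was at 73.2, 94.5 and 43.5 CPM in KO and 222, 169 and 112 in WT. Every KO library was lower, by a factor of 2.38 (-1.25 ± 0.37, adjusted p = 0.0321).

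Other steps did not pass the test. Gapdh (0.46 ± 0.29, adjusted p = 0.31) and Pgk1 (0.67 ± 0.25, adjusted p = 0.0835), which act between Tpi1 and Pgam1, were among them, as were Aldoa (0.28 ± 0.25) and Eno2 (-0.09 ± 0.56). Hk1 (0.04 ± 0.21), Gpi1 (-0.13 ± 0.19), Ldha (-0.06 ± 0.27) and Slc2a1 (-0.46 ± 0.39) had intervals on both sides of 0. None of the 8 other hypoxia-responsive genes was called, beside 13.3% of all tested genes, and 4 were positive and 4 negative in sign. Among them were Bnip3 (-1.13 ± 0.37, adjusted p = 0.0511), Vegfa (-0.99 ± 0.43, adjusted p = 0.128), Adm (-0.78 ± 0.32, adjusted p = 0.11), P4ha1 (-0.74 ± 0.31, adjusted p = 0.12), Ankrd37 (1.36 ± 0.54, adjusted p = 0.103) and Ndrg1 (0.18 ± 0.53, adjusted p = 0.852, edgeR). By role, beside the 7.55% of all tested genes called higher, lower glycolysis had 3 of 6 called higher with a median of 0.87, upper glycolysis 1 of 9 with a median of 0.15, and the transporters 0 of 3 with a median of 0.06.

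**Figure D3:**
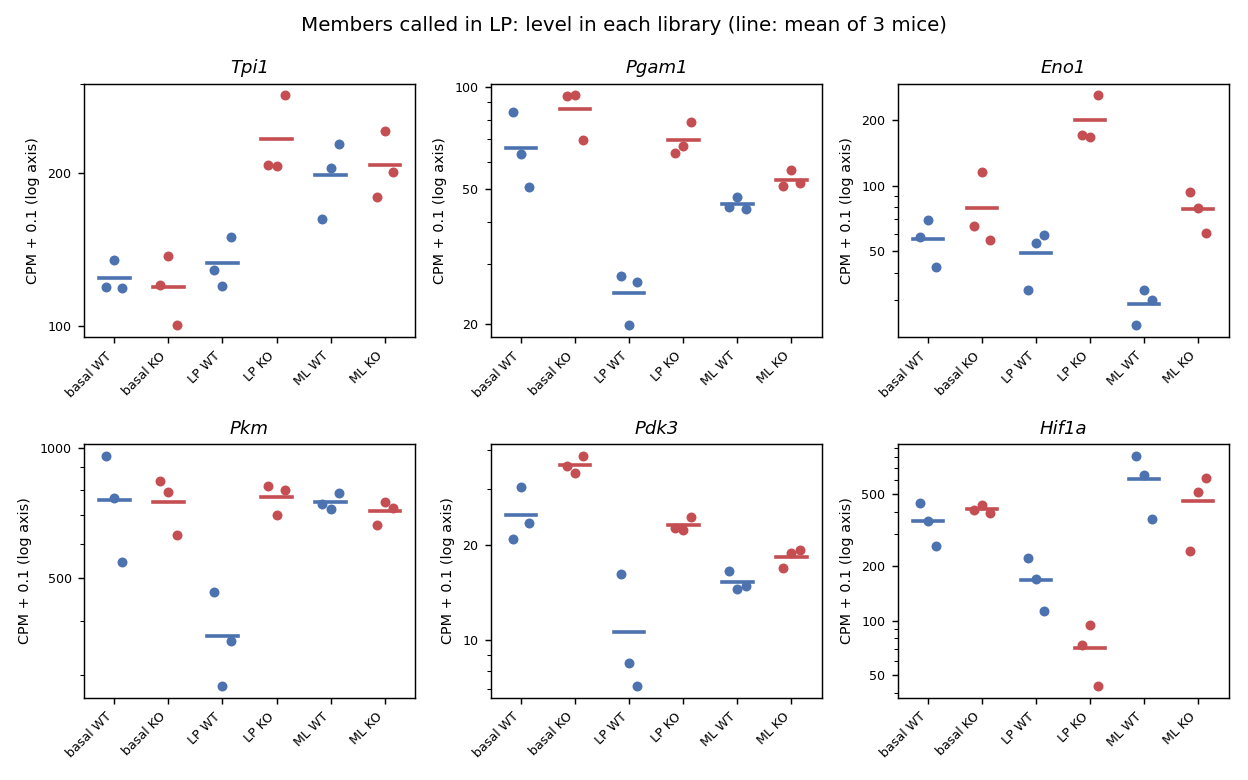
Level of the 6 genes called in LP in each of the 18 libraries (CPM plus 0.1, log axis; blue WT, red KO; points are mice, lines are means). Every LP KO point lies above every LP WT point for Tpi1, Pgam1, Eno1, Pkm and Pdk3 and below them for Hif1a.

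Other measures moved with the LP genotypes. Among tested genes with a known GC content the median log2 change in LP was 0.33 for the shortest genes (up to 2111 bases), 0.05 for the middle ones and -0.25 for the longest (over 3712 bases), and the 5 genes that rose are 1601 to 2599 bases long while Hif1a has 4761. With each library's trends in length and GC content removed, an alternative chosen after seeing the data, 6 members were called, 4 of them among the 6 above. Pgam1 (1.22, adjusted p = 0.000761), Eno1 (1.70, 0.00128), Pkm (0.92, 0.0113) and Pdk3 (1.00, 0.019) were those 4, while Tpi1 (0.48, 0.069) and Hif1a (-0.88, 0.1) were not (edgeR). The summed level of 18 cell cycle genes was 1030 to 1465 CPM in LP KO and 237 to 457 in LP WT, with 15 of 18 called higher, and that of 18 immediate early genes, which rise when tissue is dissociated, was 12209 to 15689 against 21863 to 52417 CPM, with 5 called lower. The sum of 9 ML markers was 533 to 681 CPM in LP KO against 841 to 1117, with 4 of 9 called lower, and that of 11 basal markers 80.9 to 168 against 57.0 to 97.6. None of 9 LP markers was called by edgeR, and 10 immune markers, of which 6 were tested and 3 called higher, summed to at most 46.5 CPM. The part of these shifts in the changes above was not tested.

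Without WT mouse 2, 2 members were called in LP, Pgam1 and Eno1, which were also called under every other alternative run. Over all tested genes, leaving out 1 mouse gave 824 to 2404 calls in LP, against 2186 with all mice. With all libraries thinned to 1 depth, 4 members were called, Eno1 (2.02, adjusted p = 0.00155), Pgam1 (1.57, 0.000317), Pkm (1.01, 0.0132) and Tpi1 (0.79, 0.0273). Pdk3 (0.99 against 1.15 at full depth, adjusted p = 0.0529) and Hif1a (-1.07 against -1.25, 0.0706) then missed the threshold (edgeR).

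In ML, 5 of the 6 genes that rose (Egln3, Car9, Ldhb, Pfkp and Ndrg1) are ones that were lower in ML WT than in both other WT populations, comparisons that share the ML WT libraries. Egln3 (chr12:54178981-54203874) was at 56.2, 20.1 and 15.9 CPM in ML KO and 1.27, 4.34 and 1.5 in ML WT. All KO libraries were above WT, mouse 1 the highest, and the change was 3.67 ± 0.56 (12.7-fold, adjusted p = 0.000161, edgeR). Car9 (chr4:43507026-43513729) was at 3.27, 1.79 and 2.14 CPM in KO and 0, 0.25 and 0.043 in WT. The pooled counts were 152 and 4, a ratio of 23.4 after scaling (95% counting interval 8.96 to 87.1), and the test gave 4.49 ± 0.91 (adjusted p = 0.00183). Ldhb (chr6:142490249-142507957) was at 31.0, 11.1 and 18.3 CPM in KO and 0.95, 2.5 and 6.8 in WT. It had no overlap and rose 5.40-fold (2.43 ± 0.48, adjusted p = 0.00142).

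Eno1 also rose in ML, at 93.6, 78.5 and 60.7 CPM in KO and 22.8, 33.3 and 29.7 in WT. The groups were well apart, with a change of 1.43 ± 0.30 (2.70-fold, adjusted p = 0.00274, edgeR). Pfkp (chr13:6579874-6649060) was at 80.3, 36.6 and 40.6 CPM in KO and 14.1, 18.9 and 17.5 in WT, a 3.10-fold rise (1.63 ± 0.38, adjusted p = 0.00597) with mouse 1 the highest. Ndrg1 (chr15:66929318-66969641) was at 724, 352 and 423 CPM in KO and 195, 90.2 and 111 in WT, a 3.78-fold rise (1.92 ± 0.55, adjusted p = 0.0239), again highest in mouse 1. Bnip3 (chr7:138890836-138909506) was at 7.84, 9.86 and 9.61 CPM in KO and 18.1, 24.1 and 19.3 in WT. It was lower in every KO library, by a factor of 2.25 (-1.17 ± 0.37, adjusted p = 0.0373).

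The LP genes other than Eno1 did not pass in ML: Pgam1 stood at 0.24 ± 0.21 (adjusted p = 0.492), Tpi1 at 0.06 ± 0.21, Pkm at -0.07 ± 0.23, Pdk3 at 0.26 ± 0.26 and Hif1a at -0.40 ± 0.36. Several other targets of HIF were not called either. Slc16a3 stood at 1.59 ± 0.81 (adjusted p = 0.204) and Ankrd37 at 1.25 ± 0.57 (adjusted p = 0.155), both at low counts, while Slc2a1 (0.41 ± 0.39), Ldha (0.11 ± 0.27), Vegfa (-0.51 ± 0.43) and P4ha1 (0.18 ± 0.31) were nearer 0. Pgk1 (0.70 ± 0.25, adjusted p = 0.0702) and Gapdh (0.72 ± 0.30, adjusted p = 0.115) were above WT in all libraries without passing. By role, beside 12.5% of all tested genes called higher and 2.62% lower, the calls were 2 higher and 1 lower of 8 other hypoxia-responsive genes, 1 higher of each of 9 upper and 6 lower glycolytic enzymes, 1 of 4 at pyruvate and 1 of 3 of the oxygen sensor.

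**Figure D4:**
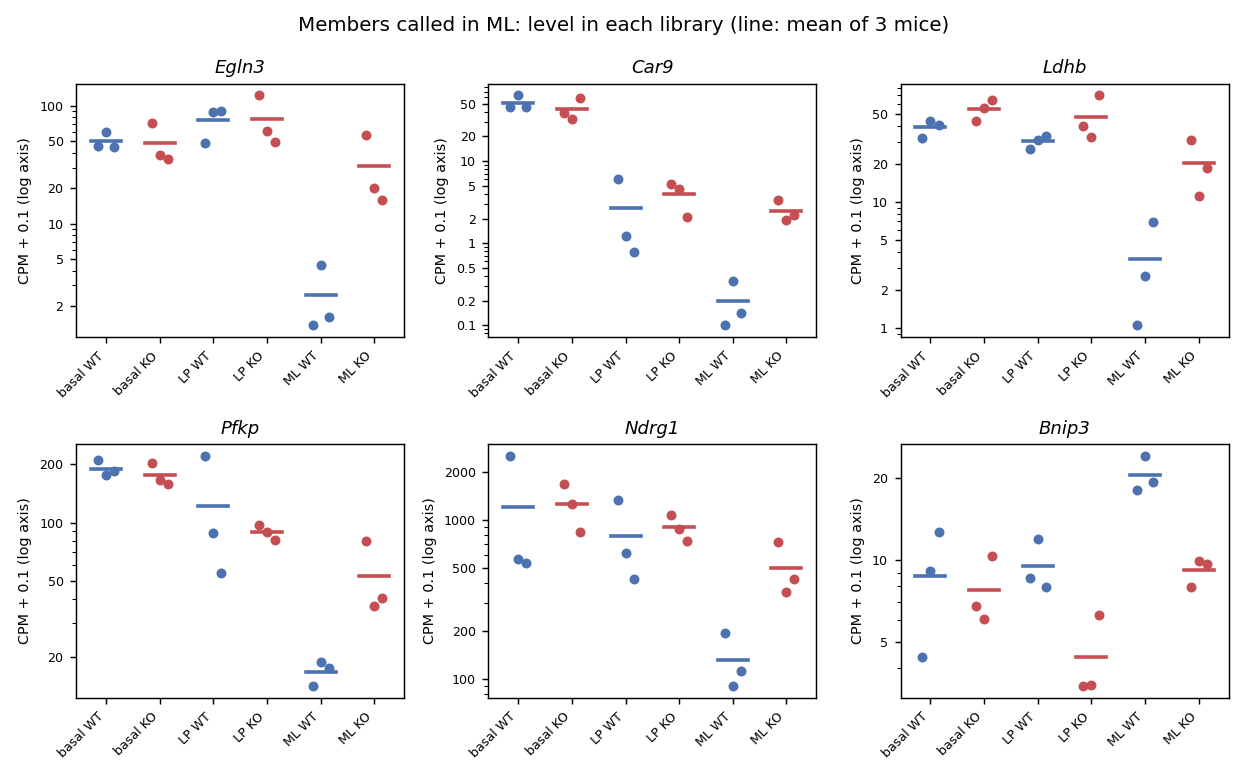
Level in each of the 18 libraries of Egln3, Car9, Ldhb, Pfkp, Ndrg1 and Bnip3 (CPM plus 0.1, log axis; blue WT, red KO; points are mice, lines are means). For the first 5 genes the ML KO mean lies between the low ML WT mean and the basal WT mean. The Car9 mean in ML KO is near its LP WT mean, where mouse 1 is far above the others. Bnip3 in ML KO is near its basal and LP WT levels.

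Markers of the other populations moved with the ML genotypes. The sum of 11 basal markers spanned 746 to 903 CPM in ML KO against 19.9 to 25.8 for ML WT, with 9 of 11 called higher, and came to 3.76% of the basal WT level in ML KO against 0.103% in ML WT. The sum of 9 LP markers was 713 to 2172 CPM against 175 to 197, with 9 of 9 called higher, or 22% of the LP WT level against 3.15%, and that of 9 ML markers was at 43.5% of ML WT, with 3 of 9 called lower. ML KO mouse 1 had the highest LP sum (2172 CPM) and the lowest ML sum (2030 CPM against 4978 and 5013 in the other KO mice). No marker of these lists was at 0 in all libraries of a group.

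Set on the same scale, Car9 in ML KO was 93.5% of its LP WT level and 4.67% of its basal WT level. Egln3 was 40.3% of its LP WT level and 61.2% of its basal WT level, and Ldhb 66.9% and 51.8%. Pfkp came to 43.3% of LP WT and 27.6% of basal WT, and Ndrg1 to 63.5% and 41.5%. Eno1 in ML KO was above both, at 158% of LP WT and 137% of basal WT. These shares are of group means, and they and the KO change share the ML KO libraries. In LP WT, mouse 1 was the highest for Car9 (5.92, 1.11 and 0.67 CPM), Pfkp (221, 88.1 and 54.7) and Ndrg1 (1324, 615 and 423). It was the lowest there for Egln3, Ldhb and Eno1. Each ML KO library had more Car9 (3.27, 1.79 and 2.14 CPM) than LP WT mice 2 and 3. In bulk RNA, more cells of another type and more RNA per cell cannot be told apart, and the part of the marker shift in the ML changes was not tested.

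Without KO mouse 1, 4 members were called in ML: Egln3 (2.91, adjusted p = 0.000473), Car9 (4.25, 0.00596), Ldhb (1.99, 0.00899) and Eno1 (1.28, 0.0155). Pfkp (1.20, 0.0507), Ndrg1 (1.56, 0.112) and Bnip3 (-1.07, 0.14) missed the threshold (edgeR). Over all tested genes, leaving out 1 mouse gave 1648 to 2287 calls in ML, against 2484 with all mice. The sum of 18 cell cycle genes spanned 501 to 971 CPM in ML KO against 105 to 177 for ML WT, with 14 of 18 called higher. The same sum was also higher in basal KO, where no member was called. There it spanned 489 to 912 CPM against 228 to 296 for basal WT, with 13 of 18 called higher, beside 2.47% of all tested genes.

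**Figure D5:**
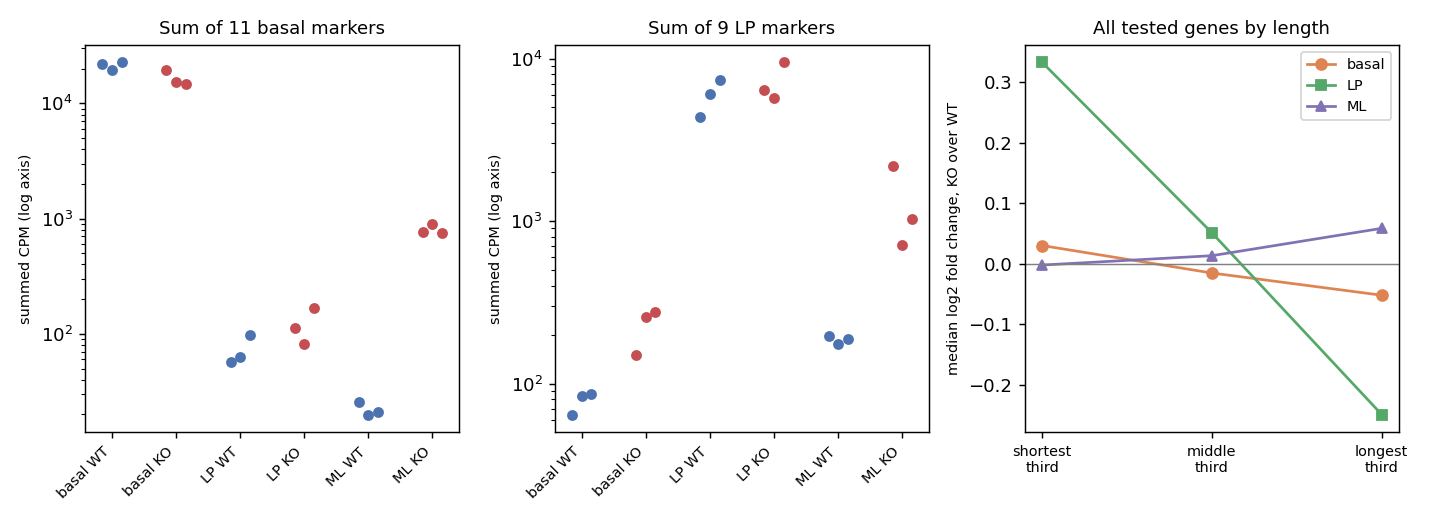
Summed CPM of 11 basal markers and of 9 LP markers in each library (log axes; blue WT, red KO), and the median log2 fold change of KO over WT for all tested genes in 3 classes of gene length. ML KO lies above ML WT for both marker sums, and the LP medians run from 0.33 for short genes to -0.25 for long genes.

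Basal KO and WT did not differ in any member at the threshold, and 2 of the 33 had an unadjusted p below 0.05, Hk2 and Pdk1. Hk2 was at 179, 163 and 182 CPM in KO and 109, 90.6 and 63.6 in WT. Its KO libraries were all higher, by 0.99 ± 0.32 (1.99-fold, adjusted p = 0.145, edgeR), which did not pass. Pdk1 differed by 0.54 ± 0.25 (adjusted p = 0.444). The 95% interval of Eno1 in basal cells ran from -0.17 to 1.13 and that of Pgam1 from -0.08 to 0.84. Their LP estimates lay above these intervals but carry an error of their own. The direct test of LP minus basal, given below, called neither gene. The basal interval of Egln3 ran from -1.09 to 0.99, below its ML estimate, and the direct test of ML minus basal called it.

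The difference of the KO effect between populations was tested directly. LP minus ML called 5 members (edgeR; 6.98% of all tested genes were called). Pgam1 (1.26 ± 0.30, adjusted p = 0.0131) and Pkm (1.14 ± 0.33, 0.0436) had the higher KO effect in LP, like 1.26% of all genes, and Egln3 (-3.63 ± 0.73, 0.00422), Pfkp (-2.08 ± 0.53, 0.0207) and Car9 (-3.81 ± 1.12, 0.0456) had it in ML, like 5.72%. Eno1, called in both populations, was not shown to differ between them (0.58 ± 0.42, 95% interval -0.34 to 1.50, adjusted p = 0.45). With the mouse as a block 7 members were called. Pfkm (1.15, adjusted p = 0.00935), Ldhb (-1.96, 0.037) and Ndrg1 (-1.59, 0.0136) came in and Car9 (-3.42, 0.0635) dropped out. Without KO mouse 1 or KO mouse 3, 1 member was called, and without KO mouse 2 or WT mouse 2, 3 were. Over all tested genes, leaving out 1 mouse gave 681 to 964 calls, against 1149 with all mice, and the 15 alternatives together gave 681 to 1729. The gain with the block is therefore not shown to be particular to the members. Egln3 kept its call with any 1 mouse left out, while Pkm missed the threshold in 5 of those 6 fits.

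ML minus basal called 2 members, Egln3 (3.72 ± 0.73, adjusted p = 0.00351) and Car9 (4.75 ± 1.07, 0.00932), beside 6.12% of all tested genes, 5.01% higher and 1.11% lower (edgeR). With the mouse as a block it called 5, adding Pfkp (1.63, adjusted p = 0.0364), Ldhb (2.07, 0.0304) and Ndrg1 (1.54, 0.0174). Over all tested genes the 15 alternatives gave 594 to 1446 calls, against 1007 as reported. Without WT mouse 3, Car9 missed the threshold (4.17, adjusted p = 0.0791). LP minus basal called none with edgeR, where 6 members had an unadjusted p below 0.05 and 1.05% of all tested genes were called, 0.377% higher and 0.674% lower. DESeq2 called 3 and limma voom 0. Its lowest adjusted p-values were those of Pgam1 (1.12 ± 0.30, 0.0837) and Eno1 (1.54 ± 0.42, 0.0937). The LP rises of these genes are therefore not shown to differ from their basal changes, and these 3 comparisons share libraries with each other.

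Other genes of these pathways were read from lists of related genes. Of 15 further glycolytic isozymes and regulators, 1 was called in LP (Eno3, the muscle enolase, lower by 2.03 ± 0.35 on the log2 scale, adjusted p = 0.00149, edgeR) and none in ML or basal cells. Eno3 was at 1.46, 1.51 and 3.49 CPM in LP KO and 8.39, 8.01 and 9.99 in LP WT. Its fall stood beside the rise of Eno1 in the same libraries.

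Of 12 further regulators of HIF, 2 rose and 1 fell in LP, and 3 rose and 1 fell in ML, beside 13.3% and 15.1% of all tested genes called. Elob (1.18 ± 0.25, adjusted p = 0.00595) and Rbx1 (1.01 ± 0.25, 0.0124), parts of the ubiquitin ligase that removes HIF1A, were the LP genes that rose. Elob was not called when only the 6 LP libraries were fitted, and Rbx1 missed the threshold in 5 of 16 alternatives, thinning among them (adjusted p up to 0.0736, edgeR). Hif3a, an alpha subunit that can inhibit the others, fell in LP at low counts, 12 in KO and 30 in WT over 3 libraries each (-2.73 ± 0.80, adjusted p = 0.0302, edgeR). That call was lost in 7 of 14 alternatives, among them limma voom, thinning to 1 depth and removal of length and GC trends. Arnt, the partner of HIF1A, rose in ML from 46.4, 44.5 and 55.7 CPM in WT to 80.4, 72.1 and 80.4 in KO (0.67 ± 0.18, adjusted p = 0.0157). Arnt libraries of the 2 genotypes did not overlap in ML.

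Of 26 further hypoxia-responsive genes, 4 rose and 1 fell in ML and 1 rose and 2 fell in LP, that is 5 and 3 of 26 beside 15.1% and 13.3% of all tested genes called. Car12 (carbonic anhydrase XII) was at 31.1, 46.9 and 60.7 CPM in ML KO and 0.63, 0.25 and 0.51 in ML WT, a ratio of pooled counts of 115 (95% counting interval 73.6 to 191; adjusted p = 1.46e-06, edgeR). It rose in LP as well (2.30 ± 0.51, adjusted p = 0.00702, edgeR), a call lost in 2 of 16 alternatives. Basal cells had 7270 counts of it in KO and 1930 in WT (ratio 3.42, 95% counting interval 3.26 to 3.6), and it was not called there. Plod2, a collagen lysyl hydroxylase, had 846 counts in ML KO and 10 in ML WT, a ratio of 52.2 (28.2 to 109), and Ak4, a mitochondrial adenylate kinase, rose 5.72-fold in ML. Basal WT held Plod2 at 45.4, 60.2 and 66.3 CPM, and the part of the ML KO marker shift in the rises of Plod2 and Car12 was not tested. Rora, a nuclear receptor, fell in LP (-2.38 ± 0.40, adjusted p = 0.00118).

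Mpc2, a subunit of the mitochondrial pyruvate carrier, was the 1 of 10 pyruvate entry genes called in LP (0.81 ± 0.23, adjusted p = 0.0257, edgeR). Rpia (ribose 5-phosphate isomerase) was the 1 of 8 pentose phosphate genes called in ML (0.97 ± 0.32, adjusted p = 0.0474, edgeR). Of all tested genes 13.3% and 15.1% were called. The call of Mpc2 and that of Rpia were each lost in 7 of 16 alternatives. Between WT populations 6 of those 8 were called in ML against the basal libraries, 5 with a higher level and 1 with a lower one, beside 53.3% of all tested genes. Of 5 gluconeogenesis genes, Fbp1 and Fbp2, which encode fructose bisphosphatases that oppose phosphofructokinase, rose in LP. Fbp1 had 159 counts in LP KO and 0 in LP WT, at least 22.6-fold higher when the WT group as a whole is set to a floor of 3 counts (adjusted p = 0.00541), and 204 against 1 in basal cells (ratio 185, 95% counting interval 32.9 to 7360). Fbp2 had 161 counts in LP KO and 4 in LP WT (ratio 17.2, 6.58 to 63.8; adjusted p = 0.0159). With all libraries thinned to 1 depth the LP calls of Fbp1 (adjusted p = 0.0687) and Fbp2 (0.142) and the basal call of Fbp1 (0.64) were lost, and without WT mouse 2 those of Fbp2 in LP and Fbp1 in basal cells were lost as well (edgeR). These levels are low, and the highest in basal cells or LP was 4.55 CPM for Fbp1 in basal KO mouse 2. In ML, Fbp1 read 3.47, 8.45 and 6.17 CPM in KO against 2.53, 1.42 and 0.34 for WT and was not called (497 and 41 counts, ratio 7.47, 95% counting interval 5.43 to 10.5; adjusted p = 0.076).

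Counting limits some of the members. Glycolytic genes have many processed copies in the mouse genome, and the share of 50-base windows of a member's transcripts that also occur in transcripts of other annotated genes was 68.0% for Pgk1, 59.1% for Bnip3, 58.4% for Gapdh, 49.5% for Eno1, 41.5% for Pgam1, 24.5% for Gpi1, 23.7% for Pkm and 21.0% for Ldhb, and 0.0% for Egln3 and Pdk3. How reads with several matches were treated, and the read length, are unknown from the sources used here. Levels of these genes are uncertain for that reason, Gapdh (14.0 to 37.5 CPM on average per group) among them. Eno1 shares most with Eno1b, a near copy that the table counts separately and at higher level (for example 116, 155 and 236 CPM in LP WT). Eno1b rose too, by 1.17 ± 0.30 in LP and 1.02 ± 0.30 in ML, and the 2 genes summed rose by 1.41 ± 0.29 in LP (adjusted p = 0.00461) and 1.13 ± 0.29 in ML (adjusted p = 0.0111, edgeR). Pfkp overlaps Pitrm1 (15.4% of windows), Tpi1 overlaps Spsb2 and Car9 overlaps Arhgef39 and Tpm2, and without a stated strand setting reads of such neighbours cannot be told apart.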

How the data were processed

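The authors deposited 1 table of whole-number counts per gene for 18 libraries, with gene lengths, made with featureCounts on mm10 per the submitters' processing notes, from TruSeq RNA v2 libraries per the labels' protocols. Aligner, versions, annotation, strand setting and read length were not given in the sources used here. Each of the 18 single-library files equalled the table, and 0 columns were left unused. Symbols were matched for 25275 of 27179 identifiers, and unmatched ones held 1.6% of counts. Members and lists were chosen with earlier results of these data known.

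Counts were fitted in edgeR 4.0.16 (R 4.3.3) with filterByExpr, TMM scaling (factors 0.832 to 1.19), 6 group means and a robust quasi-likelihood fit over all 18 libraries, with 12 residual degrees of freedom, a biological coefficient of variation of 33.3% and Benjamini-Hochberg adjustment over 16466 genes. The script was tested on simulated data. DESeq2 1.42.0, limma voom (3.58.1), other scalings, no filter, thinning to 5973389 counts, fits within a population, blocks and leaving out each mouse were alternatives; removing length and GC trends, a fit without robust estimation and Eno1 summed with Eno1b were chosen after seeing the data. Populations of 1 mouse deviated together (correlation 0.0949 to 0.334, above 0.1 in 17 of 18 pairs; the labels give the mouse). Mice of a genotype are separate animals, and counting intervals cover counting error only.

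All members could be named. Values per library were given for members called between genotypes or in a difference of KO effects and for the 4 of lowest p in each WT comparison, and for Slc16a3 and Ndrg1 between WT populations after their values were seen; from each other list, up to 4 called genes of lowest p between genotypes and up to 2 between WT populations could be named. Promoter windows came from RefSeq on GRCm38.p6, and shared windows of 50 bases from GENCODE transcripts.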

Additional observations from a re-analysis of the deposited data

Results flagged for a closer look

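The KO effect differed between populations for 5 members, by the test of the difference itself (edgeR, adjusted over all tested genes). Between LP and ML the difference in log2 change was 1.26 for Pgam1 and 1.14 for Pkm, higher in LP, and -2.08 for Pfkp, -3.63 for Egln3 and -3.81 for Car9, higher in ML. Between ML and basal cells it was 3.72 for Egln3 and 4.75 for Car9. Of the 33 members 5 and 2 were called, beside 6.98% and 6.12% of all tested genes. The 2 of 33 in ML minus basal are close to that share. Among the 15 alternatives for LP minus ML, the call of Pkm and that of Car9 were each lost in 9, that of Pfkp in 4, that of Pgam1 in 3 and that of Egln3 in none. Among the 15 for ML minus basal, Car9 lost it in 1 and Egln3 in none. In ML KO, Car9 rests on 152 counts against 4 in ML WT. The basal and LP marker sums were higher in the same ML KO libraries, and their part in these differences was not tested.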

How the results depend on the processing

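No named gene changed sign under an alternative. The balance of called members in WT LP against ML did turn, from 8 higher and 10 lower to 11 higher and 9 lower with the mouse as a block. Of the values of single genes under alternatives, 1082 kept their side of the threshold and 113 lost it. The genes were named for a call or a low p in these same data, which by itself favours kept signs and kept calls. Pgam1 and Eno1 in LP, and Egln3, Car9 and Eno1 in ML, were called under every alternative run. Hif1a in LP missed the threshold in 7 alternatives, Tpi1 in 5, Pdk3 in 4 and Pkm in 2; in ML Bnip3 missed it in 8, Ndrg1 in 3, and Pfkp and Ldhb in 1 each. The number of members called in LP was 2 when only the 6 LP libraries were fitted. LP minus ML called 3 without the filter, 3 with limma voom and 3 after thinning. DESeq2 called 3 in LP minus basal and 4 in ML minus basal. The cause was not tested.

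Leaving out each mouse gave 0 to 0 members in basal cells, 2 to 7 in LP, 4 to 6 in ML, 13 to 16 in WT LP against basal, 11 to 14 in WT LP against ML and 15 to 20 in WT ML against basal. It gave 0 to 1 in LP minus basal, 1 to 4 in LP minus ML and 2 to 2 in ML minus basal. With the mouse as replicate block, ML minus basal called 5, and beyond the changes given above no other member's call changed. KO and WT mice share only numbers (correlation -0.0977 to 0.258, above 0.1 in 4 of 9 pairs). That number as a replicate block gave 1 call in basal cells and an adjusted p of 0.0629 for Ldhb in ML (edgeR). In LP it gave 4 calls, with Pdk3 and Tpi1 lost, and Trp53 in basal cells missed the threshold (adjusted p = 0.0565, edgeR). Over all genes the calls ranged from 222 to 694 in basal cells (418 as reported), 682 to 3102 in LP (2186) and 1547 to 3085 in ML (2484). Car9 and Fbp1 are limited by depth, and with 3 mice a group small changes were not detectable.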

Other observations

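Some members followed the mouse as well as the population, a pattern noticed after the values were seen. WT mouse 1 was the highest of the 3 WT mice in all 3 populations for 9 of 33 members (27.3%), namely Slc2a1, Hk1, Hk2, Gpi1, Aldoa, Eno2, Hif1a, Vegfa and Ndrg1, beside 9.3% of the 16466 tested genes. For WT mouse 2 the count was 0 of 33 (4% of tested genes) and for WT mouse 3 it was 2 (8.92%). Ndrg1 was at 2512 CPM in basal cells of WT mouse 1 and at 563 and 536 in the other WT mice, at 1324 against 615 and 423 in LP, and at 195 against 90.2 and 111 in ML. The summed level of 18 immediate early genes was lowest in the same mouse in each WT population, at 8853, 21863 and 16942 CPM in basal cells, LP and ML. Among KO mice the counts were 4, 1 and 3 members, beside 7.54%, 5.57% and 8.96% of the tested genes. These are descriptions without a test.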
